A study of Drosophila melanogaster with 12 samples.

Results

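The comparison of dexamethasone with vehicle at night rested on 4 of the 12 arrays of the series. Heads of Drosophila melanogaster expressing CLKGR had received dexamethasone with cycloheximide (DEX) on 2 arrays and vehicle with cycloheximide on 2 arrays, all labelled ZT16. ZT (Zeitgeber time) counts hours since lights on, so ZT16 lies in the night. The 4 arrays were chosen by their titles and all genes on them were described. At ZT4, in the day, the same table holds 2 DEX arrays and 1 vehicle array, which shared the estimate of the spread and were set beside the night arrays. The driver that expresses CLKGR, the doses, the time of exposure, and the sex, age and number of the flies are not given in the labels or files used here. The labels do not say whether replicates were separate groups of flies, and p-values then describe only array-to-array spread, part of which may be technical.

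CLOCK (CLK) and its partner CYCLE (CYC) bind E-box sequences and activate period and timeless, whose proteins later block CLK-CYC and so close the main feedback loop of the fly clock. CLKGR is known in this field as CLK joined to the ligand-binding region of the glucocorticoid receptor, which lets a glucocorticoid such as dexamethasone switch the factor on. Both arms received cycloheximide, an inhibitor of translation, which is used to limit the part that newly made proteins can play. The series asks which genes CLK targets.

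Levels are log2 expression levels, a change is the mean of the DEX arrays minus the mean of the vehicle arrays on that scale, and p-values are from limma fitted to the 7 arrays with a labelled time. The 4 arrays differed among themselves before any comparison was made. Replicates lay further apart at ZT16 than at ZT4: the difference between replicates had an SD of 0.591 for DEX and 0.563 for vehicle at ZT16, against 0.338 for DEX at ZT4. The fit pools the spread over both times, so standard errors and p-values at ZT16 may be too small. Vehicle replicate 1 stood apart from the other 7 arrays of the table. Its mean correlation with them over the 11261 tested probe sets was 0.945, against 0.952 to 0.969 for the others, and it was the highest of the 8 arrays in 21.9% of probe sets, against 7.81% to 13.6% for each of the others. Its closest array was DEX replicate 1 (correlation 0.959) and not its own partner, vehicle replicate 2 (0.946). This was not particular to it, as no night array was closest to its own partner. The DEX pair correlated at 0.941. DEX replicate 1 was closest to vehicle replicate 2 (0.967). The second replicates of DEX (0.964) and vehicle (0.976) were closest to the ZT4 vehicle array. Vehicle replicate 1 had the lowest actin 3' control level, 5.64 against 6.16 to 7.53 elsewhere, and the highest bioB spike-in level, 11.46 against 10.18 to 11.00. Its widest departure downwards was in LysX, a lysozyme gene, at 3.43 against 6.42 to 9.50 on the other arrays, followed by CG18404 at 3.27 against 5.57 to 7.63 and Arpc3B, which encodes an Arp2/3 complex subunit, at 4.63 against 6.78 to 7.60. Upwards the departures were smaller: pum, which encodes an RNA-binding translational repressor, stood at 5.08 against 3.57 to 3.99 on the other 7 (a second, dimmer pum probe set read 3.08 and did not depart from its range of 2.91 to 3.15), and neur, a ubiquitin ligase gene of the Notch pathway, at 4.23 against 3.03 to 3.18. DEX replicate 2 was the next least correlated array (0.952). Values are therefore given for each array, in the order replicate 1 and replicate 2, and the changes of the genes with the widest gaps above 1 are given again without vehicle replicate 1.

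Few probe sets separated widely between DEX and vehicle at night, and the 2 of the clock gene tim had the widest gaps. No probe set passed a Benjamini-Hochberg adjusted p of 0.05 (0 of 11261, 0%), and the smallest adjusted p was 0.976. At an unadjusted p under 0.05, limma called 160 probe sets higher with DEX (1.42%) and 155 lower (1.38%), together 2.8% of those tested. With 2 arrays against 2 the smallest two-sided exact permutation p is 0.333, so no single gene can pass such a test. Changes of at least 1, a doubling, were seen in 133 probe sets higher with DEX (1.18%) and in 55 lower (0.488%). Both DEX arrays lay above both vehicle arrays in 1132 probe sets (10.1%) and below them in 1553 (13.8%). A gap of at least 0.5 between the groups was found in 60 probe sets higher with DEX (0.533%) and in 17 lower (0.151%). When the groups were required to be 1 or more apart, 9 probe sets remained on the higher side (0.0799%) and 0 on the lower side (0%). Those 9 probe sets belong to 8 genes: tim with 2 probe sets, per, MFS14, CG15096, CG9498, Prx6c, fbl and CG31974. Across all probe sets the median change was -0.025, and 44.3% of changes were above 0 (48.6% of the 7971 genes taken with 1 probe set each).

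**Figure D1:**
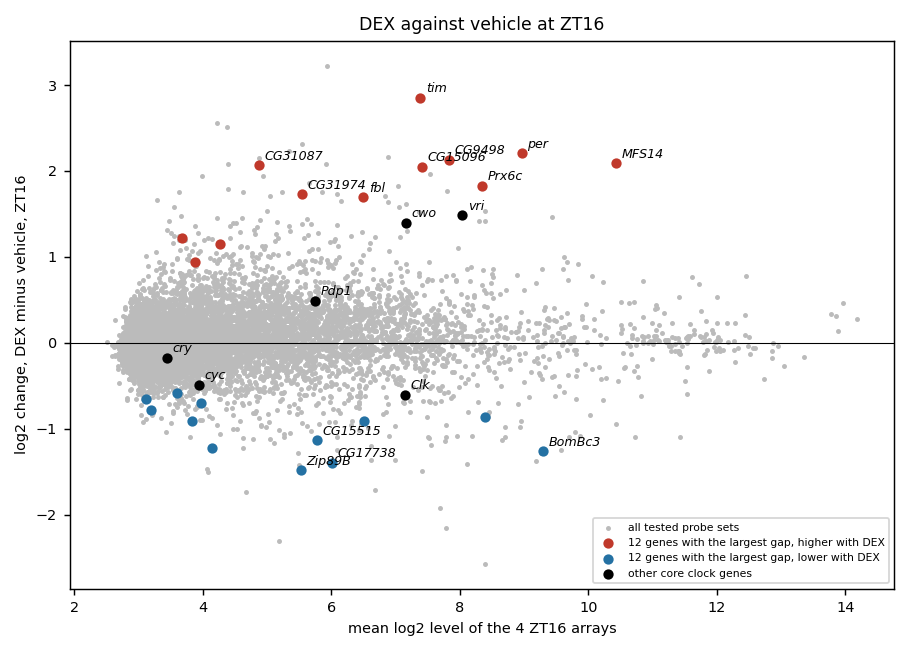
Change at ZT16 (DEX minus vehicle, log2, vertical axis) against the mean log2 level of the 4 ZT16 arrays (horizontal axis) for the 11261 tested probe sets, with the 12 genes of widest gap in each direction and the other core clock genes marked. The marked genes at 1.69 and above include tim, per, MFS14 and CG9498 at levels from about 5 to 11, while the quartiles of all changes are -0.15 and 0.15.

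The clock repressor genes tim and per were among the clearest members of this group. The tim gene, whose protein pairs with PER, stood at 9.42 and 8.21 with DEX, against 5.49 and 6.43 with vehicle, a change of 2.85 ± 0.52 (SE), or 7.22-fold, with an unadjusted limma p of 0.00158. Both DEX arrays lay above both vehicle arrays by at least 1.78, the widest gap of any gene, and a second tim probe set read 8.09 and 7.02 with DEX against 3.83 and 4.82 with vehicle. The per gene, which encodes the repressor of CLK-CYC, stood at 10.62 and 9.52 with DEX, against 7.96 and 7.76 with vehicle (2.21 ± 0.40, 4.62-fold, limma p 0.00162). Its groups were also clear of each other. Without vehicle replicate 1 the changes were 2.38 for tim and 2.31 for per, so neither rested on the array that stood apart.

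The second loop of the clock gave a mixed picture. The vri gene, whose bZIP product represses Clk, stood at 9.33 and 8.24 with DEX, against 7.13 and 7.46 with vehicle (1.49 ± 0.41, limma p 0.0117), without overlap. Pdp1, whose bZIP product activates Clk, stood at 6.66 and 5.32 with DEX, against 5.45 and 5.54 with vehicle, so that it was high on DEX replicate 1 alone (0.49 ± 0.46, limma p 0.325). The repressor gene cwo showed the same layout, with 8.99 and 6.74 in DEX heads against 5.97 and 6.96 in vehicle heads (1.40 ± 0.76, limma p 0.118), and a second cwo probe set read 5.64 and 3.47 against 3.06 and 3.33. For both genes DEX replicate 2 lay within or below the vehicle arrays on the main probe set, and the Pdp1 change turned to -0.18 when DEX replicate 1 was left out.

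The genes for the activators and the light sensor did not share this direction. Clk itself stood at 6.998 and 6.69 with DEX, against 7.30 and 7.59 with vehicle, so both DEX arrays lay below both vehicle arrays (-0.60 ± 0.29, limma p 0.0822). Whether the Clk probe set also reads the CLKGR transcript was not tested. The partner gene cyc gave 3.90 and 3.51 with DEX against 3.77 and 4.61 with vehicle, and cry, which encodes the blue-light photoreceptor cryptochrome, gave 3.69 and 3.01 against 3.28 and 3.78; both overlapped. Of the 8 core clock genes, 3 were higher at an unadjusted p under 0.05 and 0 were lower. Groups did not overlap in 3 higher (37.5%) and 1 lower (12.5%), against 11.9% and 13.1% of the 7971 genes with a tested probe set. The median change of the 8 was 0.95, and 0.046 without DEX replicate 1.

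**Figure D2:**
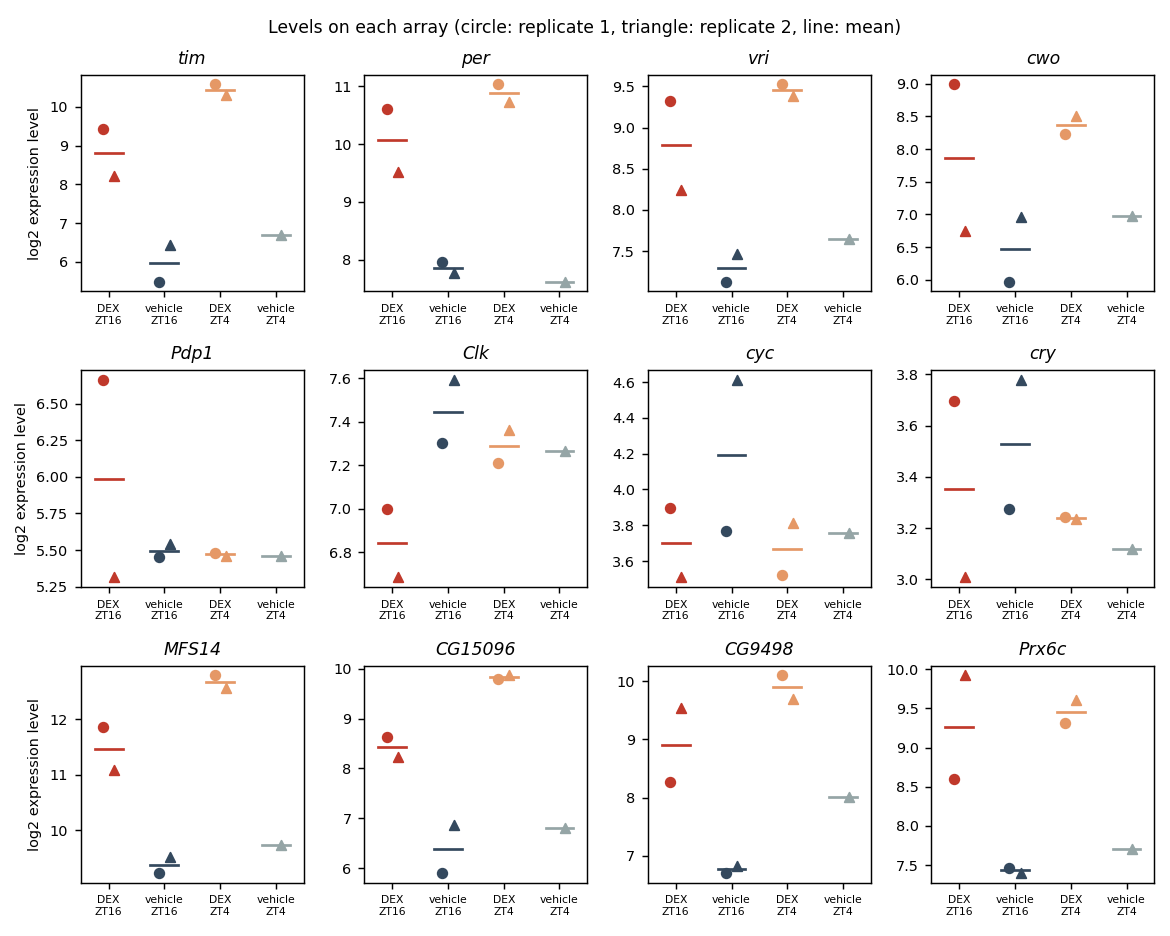
Log2 levels of 12 genes on each array with a labelled time (vertical axes, each with its own scale), with DEX left of vehicle for ZT16 and then for ZT4; circles are replicate 1, triangles replicate 2 and lines the group mean. The ZT16 groups are clear of each other for tim, per, vri, MFS14, CG15096, CG9498 and Prx6c. At ZT16 cwo and Pdp1 are high on DEX replicate 1 alone. At ZT4 cwo is higher on both DEX arrays (8.23 and 8.51) than on the vehicle array (6.98), while Pdp1 is level (5.48 and 5.46 against 5.46).

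Transporter genes of the SLC17 type, whose members carry organic anions or phosphate across membranes, included 3 that were higher with DEX. MFS14 had the smallest p of any named gene: 11.85 and 11.09 with DEX, against 9.24 and 9.52 with vehicle (2.09 ± 0.30, limma p 0.000463; 1.95 without vehicle replicate 1). CG15096 stood at 8.63 and 8.24 with DEX, against 5.91 and 6.86 with vehicle (2.05 ± 0.39, limma p 0.00201; 1.58 without vehicle replicate 1). Picot stood at 8.50 and 7.44 with DEX, against 6.62 and 6.10 with vehicle (1.61 ± 0.43, limma p 0.00984). In all 3 genes both DEX arrays lay above both vehicle arrays. Of the 11 tested members of the family 4 were higher and 7 lower, and the median was -0.078. These 3 genes had an unadjusted p under 0.05, a threshold that 1.68% of all genes passed on the higher side, and the other 8 did not. Groups were without overlap, higher, in 4 of the 11 (36.4%), against 11.9% of all genes, and without overlap, lower, in 0, against 13.1%.

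The remaining genes of the wide-gap group have metabolic roles or no role that is certain. Prx6c, a peroxiredoxin gene, stood at 8.60 and 9.92 with DEX, against 7.46 and 7.40 with vehicle (1.83 ± 0.46, limma p 0.0078; 1.86 without vehicle replicate 1). The fbl gene, which encodes the pantothenate kinase that starts coenzyme A synthesis, stood at 7.22 and 7.47 with DEX, against 5.10 and 6.20 with vehicle (1.69 ± 0.44, limma p 0.00842; 1.14 without vehicle replicate 1). CG9498 stood at 8.26 and 9.53 with DEX, against 6.71 and 6.83 with vehicle (2.13 ± 0.46, limma p 0.00371; 2.07 without vehicle replicate 1). CG9498, CG31974 and CG31087 all carry names of the ecdysteroid kinase-like family in the RefSeq gene table. CG31974 gave 5.94 and 6.87 with DEX against 4.85 and 4.50 with vehicle, and CG31087 gave 5.50 and 6.33 against 3.15 and 4.55. Without vehicle replicate 1 the change was 1.91 for CG31974, against 1.73 with it, and 1.36 for CG31087, against 2.06 with it. The last 3 of the 12 genes with the widest gap were low: CG14075 at 4.05 and 4.50 with DEX against 3.07 and 3.05 with vehicle, CG30460 (change 0.94) and CG34331 (change 1.15).

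On the lower side gaps were narrower, and many genes lay close to the level of 2.78 below which probe sets were not tested. BomBc3, which encodes a Bomanin, a short peptide induced through the Toll immune pathway, was the clearest, at 8.79 and 8.54 with DEX against 9.74 and 10.10 with vehicle (-1.26 ± 0.26, limma p 0.00278). Its groups were 0.95 apart, the widest gap on this side. CG15515 stood at 5.23 and 5.17 with DEX, against 6.74 and 5.93 with vehicle (-1.13 ± 0.36), and CG16713 at 8.002 and 7.93 against 8.52 and 9.13 (-0.86 ± 0.31). CG3097 stood at 5.79 and 6.31 with DEX, against 6.89 and 7.04 with vehicle (-0.91 ± 0.30). Zip89B, a zinc transporter gene, was lowest on DEX replicate 2, at 5.62 and 3.93 against 6.36 and 6.17 with vehicle (-1.48 ± 0.54), and CG17738 had the same layout (-1.39 ± 0.56). The other 6 of the 12, CG7695, Cox11, Grip91, CG31122, Traf6 and Uxs, averaged 2.79 to 3.63 with DEX, against 3.44 to 4.74 with vehicle. Among them Traf6, which encodes a signalling adaptor, stood at 3.71 and 3.55 with DEX, against 4.23 and 4.42 with vehicle. Ranking by p alone added dim genes in both directions: Nplp1, a neuropeptide precursor gene, at 3.89 and 3.74 with DEX against 2.89 and 3.07 with vehicle, and CG5162 on the higher side, and CG2202, CG11555, CG9164 and ric8a on the lower side, all 4 at 2.79 to 2.96 with DEX. A second ric8a probe set did not share the difference (change -0.017).

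The ZT4 arrays share no array with the ZT16 comparison, so they allow a check on separate samples. For the 8 genes with a gap of at least 1 at ZT16, both DEX arrays at ZT4 also lay above the ZT4 vehicle array in 8 of 8, against 32% of all genes. The tim change at ZT4 was 3.74, per 3.27, MFS14 2.94 and CG15096 3.02. All 4 were larger than at night, but none of the differences, ZT16 minus ZT4, had an unadjusted limma p under 0.05: -0.89 ± 0.82 for tim (limma p 0.318), -1.06 ± 0.64 for per (0.148), -0.85 ± 0.47 for MFS14 (0.125) and -0.97 ± 0.62 for CG15096 (0.170). Of the 12 higher genes with the widest gap, 10 were higher at ZT4 as well, and the 2 that were not, CG30460 and CG34331, had ZT4 changes of -0.49 and -0.59. Of the 12 lower genes, 9 were also lower at ZT4, with a median of -0.36 there against -0.91 at ZT16. In larger sets the share with the same sign was smaller. With a night gap of at least 0.5, it was 31 of 51 higher genes (60.8%) and 10 of 14 lower genes (71.4%). Without overlap at night, it was 516 of 949 higher (54.4%) and 500 of 1048 lower (47.7%). These lay close to the shares over all 7971 genes, of which 4245 were higher and 3726 lower at ZT4. Of the genes without overlap at night and with a mean level of at least 5, it was 146 of 304 higher (48%) and 80 of 114 lower (70.2%). Over all 7971 genes the 2 changes had the same sign in 49.5%, and across genes, which are not independent replicates, Pearson's r was 0.26 and Spearman's rho 0.075.

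Choosing genes on the day arrays and reading them at night showed how far the response extended. Both ZT4 DEX arrays lay at least 1.5 above the single ZT4 vehicle array, with a DEX mean of at least 5, in 43 genes. At ZT16 both DEX arrays lay above both vehicle arrays in 29 of these 43 (67.4%), against 11.9% of all genes. Both lay below in 0 of the 43, against 13.1% of all genes. The 29 include, beside those already named, Nadk1a, an NAD kinase gene, at 7.26 and 6.21 with DEX against 4.41 and 5.54 with vehicle, and CG18135 at 8.62 and 7.27 against 6.44 and 5.80. They also include CG6023 at 10.08 and 8.13 with DEX against 7.84 and 7.53 with vehicle. Only 8 genes were lower at ZT4 by the same measure. At ZT16, 1 of these 8 had both DEX arrays below both vehicle arrays, close to the 13.1% of all genes. That gene was CG14567, at 9.09 and 7.91 with DEX against 10.16 and 9.60 with vehicle. The other 7, among them Gnmt and Lsp2, overlapped at night.

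**Figure D3:**
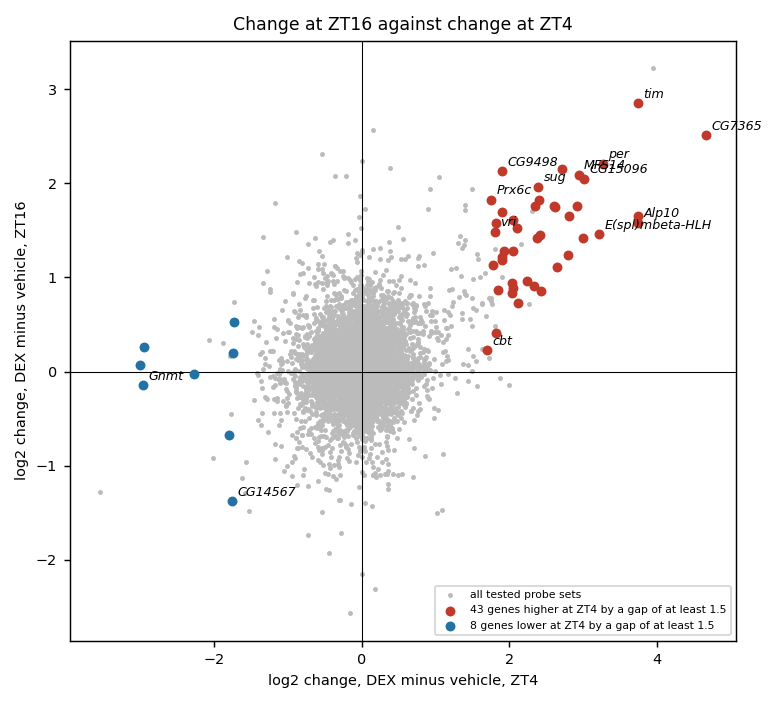
Change at ZT16 (vertical axis) against change at ZT4 (horizontal axis), both DEX minus vehicle on the log2 scale, for the tested probe sets, with the 43 genes chosen as higher and the 8 chosen as lower on the ZT4 arrays marked. All 43 higher genes lie above 0 at ZT16, with CG7365, tim and per furthest out, while the 8 lower genes scatter around 0.

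The 43 genes did not stand equally high on the 2 night DEX arrays. DEX replicate 1 lay above both vehicle arrays in 39 of them, against 30.5% of all genes, and DEX replicate 2 in 33, against 28.4%. The median differences of the 43 from the vehicle mean were 2.03 and 0.86. In 26 genes replicate 1 was at least 1 above replicate 2, in 9 the reverse held, and in 8 the arrays were within 1 of each other. Over all 7971 genes those numbers were 438, 232 and 7301. The genes higher on replicate 1 included tim, per, vri and Picot by just over 1, and others by much more. E(spl)mbeta-HLH, a Notch-responsive bHLH repressor gene, stood at 11.31 and 9.02 with DEX, against 9.09 and 8.31 with vehicle. E(spl)m3-HLH gave 6.30 and 2.71 with DEX against 2.82 and 2.69 with vehicle, and E(spl)m2-BFM, of the Bearded type, gave 5.55 and 2.81 against 2.78 and 2.74. On replicate 2 the last 2 genes were thus at the vehicle level, although both were higher on both ZT4 DEX arrays. The same layout was seen in CG42675 (8.05 and 4.17 with DEX, 3.66 and 5.04 with vehicle) and in Cipc, known in mammals as an inhibitor of CLOCK (6.75 and 4.33 with DEX, 4.22 and 4.60 with vehicle). CG7365 was also far higher on replicate 1 but stayed above vehicle on replicate 2, at 7.27 and 3.99 with DEX against 3.46 and 2.78 with vehicle. SerT, the serotonin transporter gene, gave 4.81 and 3.07 with DEX against 3.14 and 3.06 with vehicle.

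Fewer genes of the 43 were higher on DEX replicate 2. The alkaline phosphatase genes Alp9 and Alp10 were at vehicle level on replicate 1 and high on replicate 2: Alp9 stood at 2.50 and 5.73 with DEX, against 2.58 and 2.34 with vehicle, and Alp10 at 2.79 and 5.88, against 2.72 and 2.79. CG11878 gave 2.74 and 5.74 with DEX against 3.10 and 2.90 with vehicle. The sug gene, which encodes a sugar-responsive zinc finger factor, was above vehicle on both arrays, at 7.53 and 9.50 with DEX against 6.33 and 6.76 with vehicle (1.96 ± 0.64, limma p 0.0221). Prx6c, CG9498, CG6041, Vha100-5 and IleRS were also at least 1 higher on replicate 2. MFS14, CG15096 and fbl were among the 8 genes whose DEX arrays lay within 1 of each other.

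**Figure D4:**
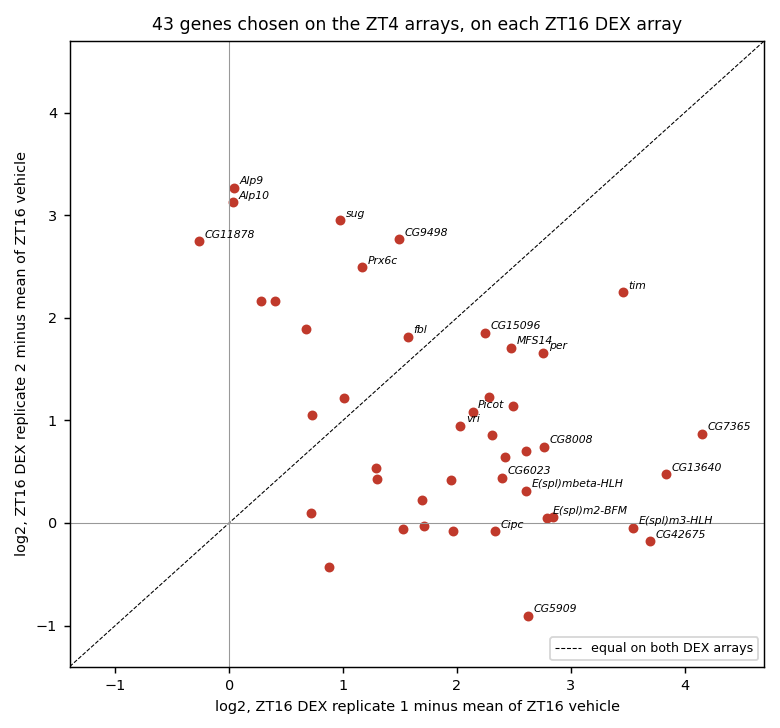
Log2 difference of ZT16 DEX replicate 2 from the mean of the ZT16 vehicle arrays (vertical axis) against that of ZT16 DEX replicate 1 (horizontal axis) for the 43 genes chosen on the ZT4 arrays; the dashed line marks equal values. Genes such as E(spl)m3-HLH and CG42675 lie near 0 on replicate 2 and above 3 on replicate 1, Alp9 and Alp10 the other way round, and tim, per, MFS14 and CG15096 are well above 0 on both.

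No probe set differed between the night and the day response after adjustment (0 of 11261, 0%, smallest adjusted p 0.424). The ZT4 comparison itself had 0 of 11261 past the adjusted threshold (smallest adjusted p 0.0962), with 128 higher (1.14%) and 322 lower (2.86%) at an unadjusted p under 0.05. For the difference, limma gave at that threshold 217 probe sets with a more positive change at ZT16 (1.93%) and 89 with a more negative one (0.79%). The genes with the smallest p were mostly near the filter level and flat at ZT16, and their ZT4 arrays differed. Fum3, CG14270 and PPO1, a prophenoloxidase gene, changed by -0.047, 0.047 and 0.22 at ZT16 and were high on the single ZT4 vehicle array. The mitochondrial ribosomal gene mRpL17 was not flat, at 3.98 and 3.95 with DEX against 3.38 and 3.43 with vehicle at ZT16 (0.56 ± 0.18) and -1.19 at ZT4. In the other direction CG32669, Kah and CG42249 changed by 0.0059, -0.064 and -0.068 at ZT16 (a second CG42249 probe set changed by 0.054 at ZT4, against 1.87 for the first). The spliceosome gene snRNP-U1-70K was not flat either, at 3.91 and 3.59 with DEX against 4.29 and 4.20 with vehicle at ZT16. Its night groups did not overlap (-0.50 ± 0.21), and its ZT4 change was 0.98.

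Gene groups outside the clock were described by counts against the shares over all genes (11.9% without overlap higher, 13.1% lower; 1.68% and 1.27% at an unadjusted p under 0.05). Clock kinases and regulators, which set the stability of PER and TIM, had 4 of 10 higher, 0 with a p under 0.05 and a median of -0.077; dco, the casein kinase gene, stood at 6.68 and 6.03 with DEX against 6.50 and 6.95 with vehicle. Heat shock and chaperone genes were higher in 9 of 9, without overlap in 5 (55.6%), with a median of 0.40, yet 0 had a p under 0.05. That shift was largest on DEX replicate 2: Hsp26, a small chaperone gene, stood at 11.56 and 13.00 with DEX against 11.68 and 11.80 with vehicle, and without replicate 2 the median was 0.068. Hsp60A and Hsc70-5 had another layout. They lay 0.74 and 0.72, and 0.60 and 0.56, above the vehicle mean on the DEX arrays. Without vehicle replicate 1 their changes were 0.23 and 0.066. Proteasome genes were higher in 22 of 26 with a median of 0.27, but only 2 were without overlap (7.69%); Rpn7 stood at 4.91 and 5.91 with DEX against 3.84 and 4.92 with vehicle, where vehicle replicate 1 was the low array. Without vehicle replicate 1 the proteasome median was 0.0098. Cytoplasmic ribosomal protein genes (27 tested, median 0.021) and nuclear respiratory chain genes (48 tested, 25 higher, median 0.016) had medians close to 0. Without overlap were 10 of the 48 respiratory genes higher (20.8%) and 3 lower (6.25%), and 3 of the 27 ribosomal genes higher (11.1%) and 1 lower (3.7%), with 0 of either group at an unadjusted p under 0.05. Immediate early genes, which follow neuronal activity, were higher in 5 of 9, with 0 without overlap in either direction. Ecdysone response genes were lower in 8 of 9, 3 of them without overlap (33.3%), with a median of -0.18 and 0 with a p under 0.05. Among 17 insulin, starvation and lipid storage genes, 10 were higher, and sug alone had a p under 0.05. Known rhythmic output genes were higher in 9 of 15 and without overlap in 4 (26.7%), with MFS14 and CG15096 the 2 that had a p under 0.05 and a median of 0.32 that was -0.011 without DEX replicate 1; Pdh, a retinoid dehydrogenase gene of the eye, gave 8.55 and 8.42 with DEX against 7.55 and 8.35 with vehicle. The E(spl), Bearded and Hairy-related genes described above were higher in 6 of 8 with a median of 0.39 (-0.0023 without DEX replicate 1), while the 7 tested Notch pathway genes were higher in 5 with 0 without overlap and a median of 0.0088.

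Immune peptide genes varied across the night arrays in a way that crossed the treatment. CecB, a cecropin gene, stood at 9.49 and 3.82 with DEX, against 10.11 and 6.20 with vehicle. Def, the defensin gene, stood at 11.71 and 7.004 with DEX, against 11.37 and 7.12 with vehicle, and DptB, a diptericin gene, at 9.31 and 4.12, against 8.78 and 5.33. The first replicate of each group was thus high and the second low, and the groups overlapped. AttD, an attacin gene, gave 10.004 and 3.40 with DEX against 9.86 and 7.84 with vehicle, and Drs, the drosomycin gene, gave 12.10 and 7.81 against 11.29 and 10.52. The median level of the 10 tested immune genes was 9.49 and 5.91 on the DEX arrays and 9.32 and 7.17 on the vehicle arrays, against 7.09 to 7.51 on the other 4 arrays of the table. Their median change was -0.57, but 0.41 without vehicle replicate 1 and 1.27 without DEX replicate 2. Without overlap, lower, was 1 of 10, against 13.1% of all genes. It was Rel, the NF-kappaB factor of the Imd pathway, at 10.28 and 8.93 with DEX against 10.50 and 10.39 with vehicle. The part of this immune variation in the lower value of BomBc3 was not tested.

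**Figure D5:**
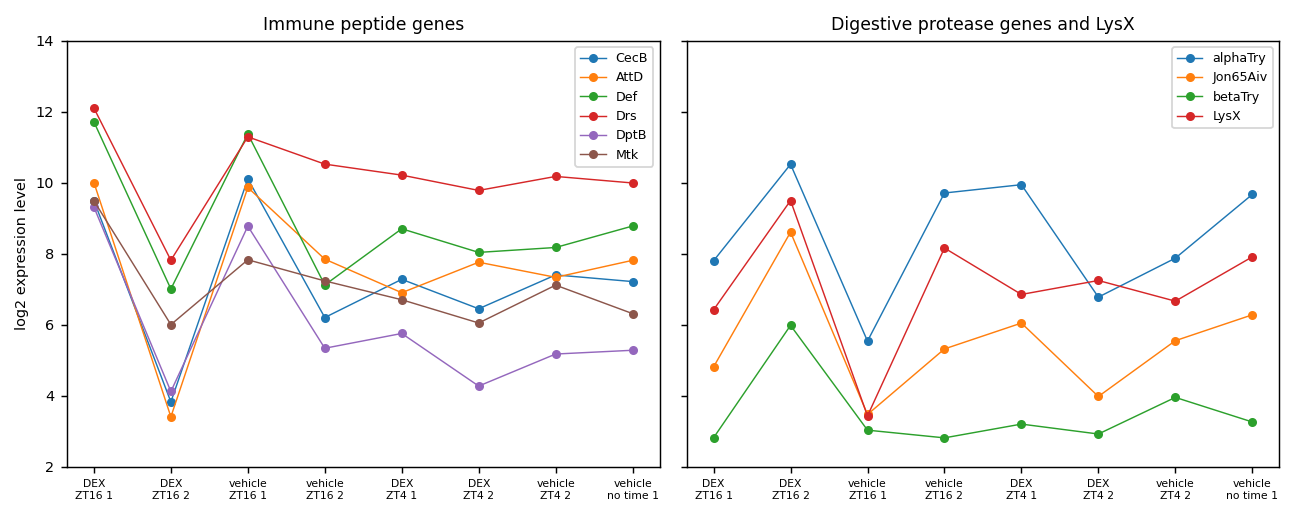
Log2 levels (vertical axes) of 6 immune peptide genes (left) and of 3 digestive protease genes with LysX (right) on the 8 arrays of the table, with the vehicle array that has no labelled time last; lines only join the values of a gene. The immune genes are high on the first replicate of both ZT16 groups and low on DEX replicate 2, the digestive genes are highest on DEX replicate 2, and all but betaTry are lowest on vehicle replicate 1.

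Markers of cell types of the head, and of gut, ovary and testis, were read beside these results. Over all genes, groups were without overlap in 11.9% higher and 13.1% lower. In whole heads, a change in the number of cells of a type and a change in RNA per cell cannot be told apart. Neuron markers were level (1 of 6 higher, median -0.033), with elav at 5.67 and 5.43 in DEX heads against 5.65 and 5.77 in vehicle heads. Photoreceptor markers were higher in 6 of 6 by a median of 0.19, with 0 without overlap, and the median was -0.12 without vehicle replicate 1 and -0.15 without DEX replicate 1. Fat body markers were likewise higher in 6 of 6, by a median of 0.31, with 0 without overlap, and the median was -0.083 without vehicle replicate 2. Glia markers were higher in 6 of 7, by a median of 0.31, and 2 of the 7 were without overlap, higher (28.6%). Among the glia markers nrv2, a sodium pump subunit gene, had an unadjusted limma p of 0.0447 (4.48 and 4.03 with DEX against 3.78 and 3.64 with vehicle). The defining glial factor repo overlapped, at 3.45 and 2.95 with DEX against 2.97 and 2.76 with vehicle. Gut markers differed most: alphaTry gave 7.80 and 10.52 with DEX against 5.54 and 9.71 with vehicle, and Jon65Aiv gave 4.81 and 8.61 against 3.47 and 5.31, both digestive proteases and both overlapping. For the 4 tested gut markers the median was 1.51, but 0.42 without vehicle replicate 1 and 0.036 without DEX replicate 2, with 0 without overlap and betaTry near the filter level on 3 of the 4 night arrays. Haemocyte (5 tested, median 0.11) and muscle markers (4 tested, median -0.014) stayed close to 0, and of the ovary and testis markers 2 of 5 and 1 of 4 passed the filter. The part of gut, fat body or glial tissue in the metabolic genes that were high on DEX replicate 2 was not tested.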

How the data were processed

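Total RNA of fly heads, extracted with Trizol per the labels' protocols, was measured on Affymetrix arrays. The authors deposited intensity values on a linear scale, made with GCRMA per the submitters' processing notes. Its version and settings and the probe set definitions are not stated in the labels. The natural log of the deposited intensity values was read as the log2 level, because the highest deposited value, 5374153, exceeds the 65535 of a 16-bit scanner and its natural log, 15.5, lies in the GCRMA log2 range. With log2 of the deposited values, changes would be 1.44 times as large and the tests the same.

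After 183 control probe sets were left out, 11261 of 18769 probe sets with a mean over the 8 arrays above the 40th percentile (2.78) were tested. Of all probe sets, 13647 had 1 gene, 402 several and 4720 none; 13544 names were matched in the RefSeq table whose assembly is Release 6 plus ISO1 MT. A gene is represented by its probe set with the highest mean.

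The fit used limma 3.58.1 in R 4.3.3 (statmod 1.5.0 for the block), with 1 mean per treatment and time over 7 arrays, a mean-variance trend and Benjamini-Hochberg adjustment. The lone ZT4 vehicle array was assumed to vary like the others. The number of arrays limits the precision. Each ZT16 group has replicates 1 and 2. The correlation of the replicate differences between DEX and vehicle over the tested probe sets was 0.073, so the numbers were not treated as pairs. Some immune genes, such as CecB, Def and DptB, were nonetheless higher on replicate 1 in both groups. A vehicle array without a labelled time entered only the filter and the description of arrays, and 4 arrays of another design were not used.

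The genes named are the 12 with the widest gap and the 6 with the smallest p in each direction, the core clock genes, list members with an unadjusted p under 0.05, the 4 in each direction for the difference between times and those farthest out on vehicle replicate 1. The genes chosen on the ZT4 arrays, and the further members named from them and from the 25 gene lists, were picked after their values were seen. The comparison, lists and members were chosen with earlier results of these data known.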

Additional observations from a re-analysis of the deposited data

How the results depend on the processing

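The count of probe sets past the adjusted threshold was 0 for the night effect and for its difference from the day effect under every alternative run, with smallest adjusted limma p between 0.0551 (without DEX replicate 1) and nearly 1. The count at an unadjusted p under 0.05 moved. For the night effect (315 as reported) it was 181 with only the 4 ZT16 arrays, 208 with array weights, 493 with no filter on dim probe sets and 202 with a stricter one, and 531 to 1774 when 1 night array was left out. Median centring split it as 196 higher and 114 lower, no mean-variance trend as 215 and 140, and leaving out 1 array as 488 and 292 (DEX replicate 1), 440 and 91 (DEX replicate 2), 130 and 478 (vehicle replicate 1) and 480 and 1294 (vehicle replicate 2). With the replicate number as a block it was 260. Whether equal replicate numbers mark arrays that belong together is not stated in the labels. For the difference (306 as reported) it was 199 with the replicate block, 585 with no filter, 170 with the stricter filter and 375 to 1263 when 1 night array was left out. Leaving out 1 array turned Pdp1 to -0.18 (without DEX replicate 1) and cry to 0.17 (without DEX replicate 2) and 0.076 (without vehicle replicate 2); the 4 such fits gave -0.18 to 1.17 for Pdp1 and -0.52 to 0.17 for cry. Over those 4 fits, list medians ran from 0.046 to 1.60 for the core clock, -0.17 to 0.047 for clock kinases, -0.066 to 0.47 for SLC17 transporters, -0.011 to 0.73 for rhythmic output, 0.068 to 0.68 for heat shock genes, -0.017 to 0.11 for ribosomal proteins, 0.13 to 0.49 for glia and -0.10 to 0.17 for muscle. The immune median ran from -1.89 to 1.27 and the gut median from 0.036 to 2.98. The changes of tim (2.25 to 3.46), per (1.66 to 2.76) and MFS14 (1.71 to 2.47) kept their direction. Of the genes higher at ZT4, the share with night groups that do not overlap was 52.5% (42 of 80) with a ZT4 gap of 1, 66.7% (14 of 21) with a gap of 2 and 76.7% to 90.7% with 1 night array left out, when the share of all genes was 28.4% to 33%; these settings were chosen after seeing the data. The cause of these shifts was not tested.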

Other observations

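Some of the largest night changes came from 1 array, and the genes were picked after their values were seen. The acyl-CoA binding protein genes Acbp5 and Acbp3 were high on DEX replicate 2 alone. Acbp5 stood at 2.85 and 8.14 with DEX, against 3.02 and 2.85 with vehicle, and Acbp3 at 4.20 and 8.74, against 4.02 and 4.43. Cytochrome P450 genes, many of which oxidise foreign compounds and hormones, shared this layout in 3 cases: Cyp6a2 gave 4.90 and 8.28 with DEX against 4.800 and 4.65 with vehicle, Cyp6a21 gave 3.99 and 6.35 against 3.86 and 3.68, and Cyp309a1 gave 4.16 and 6.05 against 3.66 and 3.83. The 50 tested P450 genes as a group were higher in 20 and lower in 30. Only 1 of the 50, Cyp6a9, had an unadjusted limma p under 0.05, lower (-0.68 ± 0.19), beside 1.27% of all genes on that side. CG9701 had the lowest change of all genes, -2.57, with 9.53 and 4.68 in DEX heads against 9.24 and 10.10 in vehicle heads, so that it too rested on DEX replicate 2. Glutathione and UDP-glycosyl transferase genes, which attach conjugates to foreign compounds, were higher in 24 of 44. Ugt37A3 alone had an unadjusted limma p under 0.05, higher (0.44 ± 0.15), beside 1.68% of all genes on that side. The part of digestive tissue, whose protease genes were high on the same array, was not tested.

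Because 3 of the 12 higher genes with the widest gap carry ecdysteroid kinase-like names, the family was counted. Of 51 members in the RefSeq gene table, 46 were named on the array and 34 were tested, of which 20 were higher and 14 lower with a median of 0.065. Groups did not overlap in 7 higher and 3 lower of the 34, beside 11.9% and 13.1% of all genes. CG9498, CG31974 and CG31087 were the 3 with an unadjusted limma p under 0.05, all higher, beside 1.68% of all genes on that side. All 3 read higher on DEX replicate 2 than on replicate 1. CG11878, CG16898, CG10513, CG6908 and CG13659 were among the members that lay above both vehicle arrays on DEX replicate 2 alone. The family was looked at after these genes were seen, so the counts describe it and test nothing.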
